A study of Macaca mulatta with 22 samples.

Results

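The blastocysts stand at one end of a series of single rhesus macaque (Macaca mulatta) oocytes and embryos, and the oocytes at the other. Set against each other are the 2 blastocyst libraries and the 7 oocyte libraries, 9 of the 22 libraries of the study, chosen by the stage in their labels alone. The oocytes are 2 at the germinal vesicle stage (GV), 2 at metaphase I (MI) and 3 at metaphase II (MII). The 13 libraries between the ends are pronuclear (PN, 3), 2-cell (2C, 2), 4-cell (4C, 3), 8-cell (8C, 2) and morula (Mo, 3) embryos, used here to place a change along the series and to follow genes whose level is the same at both ends.

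Each library holds the amplified RNA of 1 whole oocyte or 1 whole embryo. Per the labels, the blastocysts were made by intracytoplasmic sperm injection followed by culture, while the oocytes were taken after death from donors that had been superovulated. Stage and source therefore cannot be told apart. No label names an animal, so p-values measure only the spread between these single oocytes and embryos. The amplification kit primes on the poly(A) tail, and the part of tail length in these differences was not tested.

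A fully grown oocyte carries a store of RNA made before ovulation, kept silent and used up while transcription from the embryo's own genome begins. The blastocyst is the first embryo with separate cell types: an outer epithelium, the trophectoderm, which pumps fluid into the cavity and founds the placenta, and an inner cell mass that holds the epiblast, from which the body forms, and the primitive endoderm, which lines the yolk sac. Comparing the ends of the series therefore sets a single cell with stored RNA beside an embryo of several cell types that runs on its own transcription.

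The values are RPKM, reads per kilobase of transcript scaled to the mapped reads of a library, and differences are given as log2 differences of log2(RPKM + 1), blastocysts minus oocytes, which understates differences of low genes. Summed RPKM was 650643 and 387069 in the blastocysts, against 478814 to 541680 in the oocytes. Estimated depth was 12100000 and 14265000 reads in the blastocysts, against 12240000 to 21435000 reads in the oocytes. Entries at 1 RPKM or more numbered 7801 and 9076 in the blastocysts, against 8048 to 10017 in the oocytes. Among the libraries between the ends, morula library 2 stood apart with 4277. Over the 14312 entries tested, the 2 blastocysts correlated with each other at 0.92 (Pearson's r, across entries), below the 0.94 to 0.97 of oocytes of 1 stage, and with the oocytes at 0.50 to 0.61.

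Of 14312 entries, 2615 (18.3%) were higher in blastocysts than in oocytes and 3823 (26.7%) were lower, at an adjusted p under 0.05 in limma, which together makes 45% of all entries. In 2331 of the higher and 3307 of the lower entries both blastocysts lay outside the range of the 7 oocytes. Over all entries, called or not, both blastocysts lay above all 7 oocytes in 20% and below all of them in 27.8%. A difference of 3 log2 units or more was reached by 636 higher and 1065 lower entries, and 5 units by 122 and 242. Of the higher entries, 201 were listed at 0 RPKM in every oocyte, and of the lower entries, 595 were listed at 0 RPKM in both blastocysts. The median over all entries was -0.23, and it was 0.02 when libraries were scaled by the median of their ratios. That scaling turned the split of the calls round, to 3202 higher and 2739 lower, and with no filter on low values 3786 entries were higher and 3702 lower. The balance between the directions thus depends on the scaling and on the filter. Because RPKM is relative to the library, fewer cells of a type and less RNA per cell cannot be told apart.

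The blastocysts were also set against each oocyte stage on its own. Against GV oocytes 1723 entries (12%) were higher and 3528 (24.7%) lower, and against MI oocytes 1785 (12.5%) and 3234 (22.6%). Against MII oocytes 2824 (19.7%) were higher and 3064 (21.4%) lower. MII has 3 libraries and the others 2, which gives its comparison a smaller error. With 1 MII library left out in turn, 2379 to 2498 entries were higher and 2657 to 2821 lower against MII. The difference between the counts of the oocyte stages was not tested.

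The largest increases included keratins, other genes known from epithelia and a gene known from pluripotent cells. KRT8 and KRT18, the paired keratins of simple epithelia such as the trophectoderm, lie next to each other on chromosome 11 in the deposited coordinates (49965072 to 49973024 and 50014162 to 50018234). KRT8 had 1236 and 263 RPKM in the blastocysts, against a lowest, median and highest of 0, 0 and 0.353 RPKM in the oocytes. KRT18 had 1206 and 880 RPKM in the blastocysts, against 0.037, 1.76 and 2.08 RPKM in the oocytes. Both blastocysts were above every oocyte for both keratins, by 9.08 ± 0.52 and 9.09 ± 0.64 log2 units (SE; limma adjusted p 2.29e-10 and 2.56e-09).

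S100P, a calcium-binding protein of epithelia, had 1443 and 958 RPKM in the blastocysts, against 0, 0 and 0.295 RPKM (lowest, median, highest) in the oocytes. PLAC8, first described as a placental transcript, had 545 and 457 RPKM in the blastocysts, against 0, 0 and 0.198 RPKM in the oocytes. In both cases 6 of the 7 oocytes were listed at 0 RPKM, and the differences were 10.15 ± 0.41 and 8.93 ± 0.56 log2 units (SE; limma adjusted p 4.82e-12 and 5.76e-10). IFITM1 and IFITM3 encode small membrane proteins that restrict the entry of viruses and are neighbours on chromosome 14 as deposited (130413 to 131581 and 135180 to 136401). IFITM1 showed the largest increase among genes with a symbol and an Ensembl identifier, with 2273 and 823 RPKM in the blastocysts, against 0, 0 and 0.129 RPKM in the oocytes, a difference of 10.39 ± 0.70 log2 units (SE; limma adjusted p 1.38e-09). IFITM3 was 8.86 ± 1.06 log2 units higher (SE; limma adjusted p 1.86e-06), with 2089 and 998 RPKM in the blastocysts, against 0.089, 0.847 and 16.4 RPKM in the oocytes. The table holds 5 entries named IFITM3, so reads of near-identical copies may be split among them.

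The remaining genes of the highest 10 were LDHB, DPPA2, RPL39 and TUBB. LDHB, a subunit of lactate dehydrogenase, had 5898 and 3132 RPKM in the blastocysts, against 0.29, 1.94 and 11.1 RPKM in the oocytes, the highest blastocyst level of the 10. DPPA2, a DNA-binding protein of pluripotent cells, had 542 and 306 RPKM in the blastocysts, against 0, 0 and 0.097 RPKM in the oocytes. RPL39, a protein of the large ribosomal subunit, had 4355 and 1021 RPKM in the blastocysts, against 1.98, 5.54 and 11.1 RPKM in the oocytes. All of them separated the blastocysts from every oocyte, and none of the 10 genes lost its call under any alternative run. LDHB has 4 entries, KRT18 has 3, and KRT8, RPL39 and TUBB have 2 each.

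**Figure D1:**
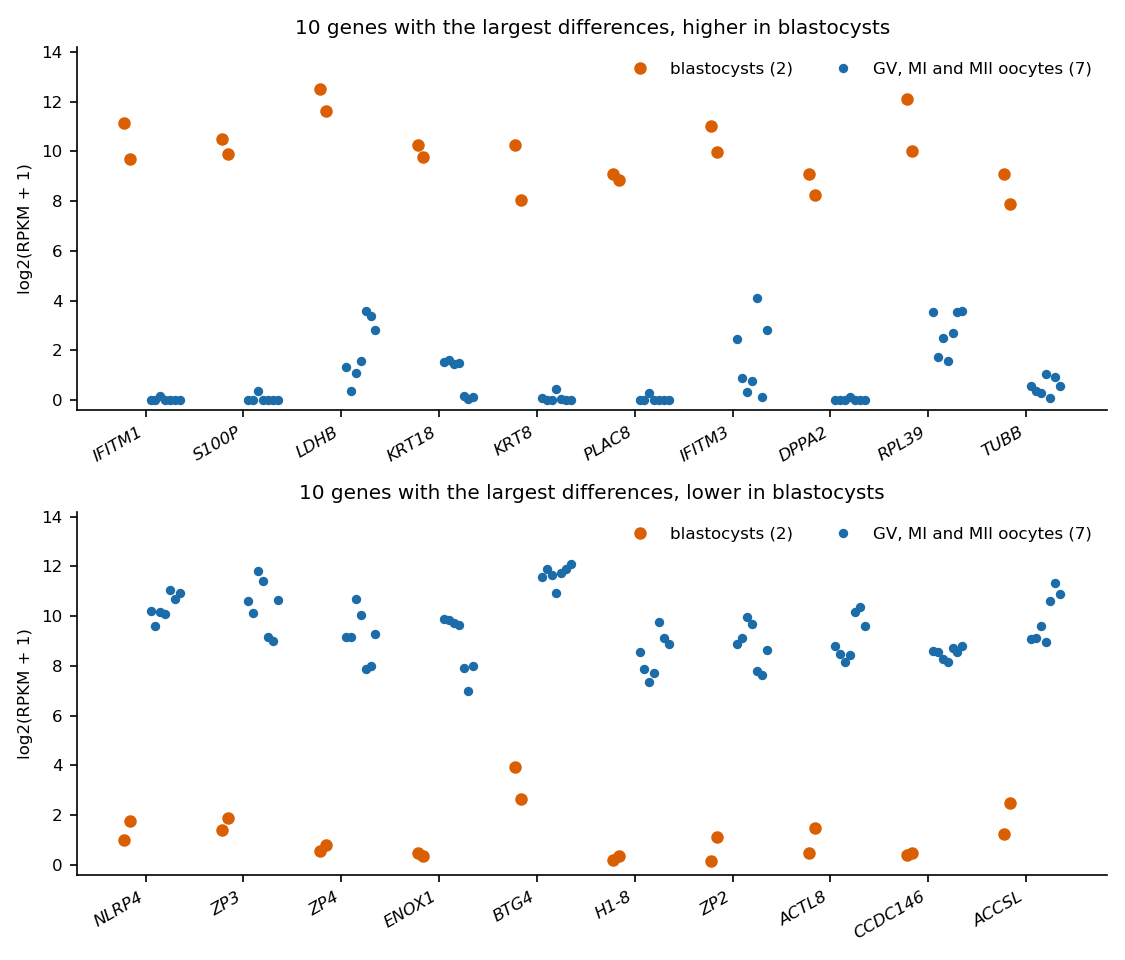
Level of the 10 genes with the largest differences in each direction, in log2(RPKM + 1), 1 point per library: 2 blastocysts (orange, left) and 7 oocytes (blue, right; GV, MI and MII libraries in order). The 2 blastocysts lie apart from all 7 oocytes for each of the 20 genes, with KRT8 at 1236 and 263 RPKM in blastocysts and at most 0.353 RPKM in oocytes, and NLRP4 at 0.985 and 2.42 RPKM in blastocysts and at least 782 RPKM in oocytes.

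On the other side, 5 of the 10 largest decreases were genes of the egg coat, of the NLRP family or of egg chromatin. ZP2, ZP3 and ZP4 encode glycoproteins of the zona pellucida, the coat that binds sperm. ZP3 had 1.65 and 2.72 RPKM in the blastocysts, against 512, 1555 and 3571 RPKM (lowest, median, highest) in the oocytes, a difference of -8.74 ± 0.67 (SE; limma adjusted p 6.57e-09). NLRP4, an oocyte-restricted member of the NLRP family, had 0.985 and 2.42 RPKM in the blastocysts, against 782, 1182 and 2135 RPKM in the oocytes. It gave the largest decrease among genes with an Ensembl identifier, -9.01 ± 0.36 (SE; limma adjusted p 4.82e-12). H1-8, the linker histone of the egg, had 0.153 and 0.259 RPKM in the blastocysts, against 162, 378 and 876 RPKM in the oocytes.

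BTG4, the adaptor that brings the deadenylase to maternal messages, was still measurable in both blastocysts, with 14.4 and 5.21 RPKM, against 1958, 3436 and 4379 RPKM in the oocytes. ENOX1, an oxidase of the cell surface, had 0.378 and 0.288 RPKM in the blastocysts, against 127, 790 and 950 RPKM in the oocytes. ACTL8, CCDC146 and ACCSL complete the lowest 10. CCDC146 was the most even of these among the oocytes, at 281, 380 and 444 RPKM, with 0.294 and 0.385 RPKM in the blastocysts. None of the 20 genes took its blastocyst side for good before the 8C stage: the lasting crossing of the midpoint between the ends was at 8C for RPL39, TUBB, ZP3 and ZP4, at Mo for LDHB, IFITM1 and the other 8 decreasing genes, and at the blastocyst itself for S100P, KRT8, KRT18, PLAC8, IFITM3 and DPPA2.

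Lists of genes with a shared role are given as counts, each to be read against the shares over all entries, 18.3% higher and 26.7% lower. Among 13 tested genes of the subcortical maternal complex and the NLRP family, the protein assembly under the egg membrane and its relatives, 9 were lower and 2 higher, with a median of -4.96. NLRP5, a core member of the complex, had 0 and 0.354 RPKM in the blastocysts, against 29.0, 242 and 323 RPKM in the oocytes. PADI6, the enzyme-like protein of the egg's lattices, had 0.073 and 0.431 RPKM in the blastocysts, against 52.3, 326 and 516 RPKM in the oocytes. The list was not uniform. NLRP7, a member mutated in human recurrent hydatidiform mole, was higher, with 247 and 163 RPKM in the blastocysts, against 5.78, 20.8 and 43.4 RPKM in the oocytes (3.46 ± 0.43, SE; limma adjusted p 3.07e-06). NLRP2 was also called higher (457 and 304 RPKM in blastocysts, 52.5, 217 and 238 RPKM in oocytes), but the call was lost without blastocyst library 1 and with the 7 oocytes fitted as 1 group. OOEP, another member of the complex, had 552 and 234 RPKM in the blastocysts, within the 298 to 966 RPKM of the oocytes, and was not called.

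Of 9 tested genes on the zona and oocyte-secreted list, 7 were lower and 1 was higher, with a median of -5.58. The growth factor BMP15 had 0.418 and 1.06 RPKM in the blastocysts, against 31.4, 74.0 and 338 RPKM in the oocytes. The gene of this list called higher was KITLG, the ligand of the KIT receptor. It had 2.06 and 11.5 RPKM in the blastocysts, against at most 0.066 RPKM in the oocytes. Of 22 tested oocyte and germline factors, 13 were lower and 2 higher (median -2.21). The RNA-binding protein DAZL had 1.01 and 1.93 RPKM in the blastocysts, against 88.6, 126 and 167 RPKM in the oocytes, and the transcription factor FIGLA was listed at 0 in both blastocysts, against 4.81, 34.3 and 93.2 RPKM in the oocytes. HORMAD1, a meiotic chromosome protein, ran the other way: it had 7.15 and 6.78 RPKM in the blastocysts and was listed at 0 in every oocyte (2.99 ± 0.61, SE; limma adjusted p 0.000573).

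Of 39 tested genes of maternal RNA storage and decay, 18 were lower and 4 higher, and the lower calls came to 10 without blastocyst library 1. The higher calls came to 1 without blastocyst library 2, to 6 without morula library 2 and to 7 under scaling. ZAR1, which holds messages in a store within the oocyte, was listed at 0 in both blastocysts, against 11.9, 73.6 and 166 RPKM in the oocytes. PATL2, an oocyte translational repressor, had 0.053 and 0 RPKM in the blastocysts, against 9.95, 65.0 and 85.2 RPKM in the oocytes. Among catalytic deadenylase subunits CNOT6L was lower, with 1.48 and 1.87 RPKM in the blastocysts, against 18.1, 24.8 and 48.8 RPKM in the oocytes. Its paralogue CNOT6 had 0.099 and 5.34 RPKM in the blastocysts, on both sides of the oocyte median of 2.94 RPKM, and was not called. ZFP36L2, a factor that sends messages to decay, was higher, with 12.7 and 13.6 RPKM in the blastocysts, against at most 2.29 RPKM in the oocytes.

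Of 34 tested genes of meiotic maturation, 18 were lower and 3 higher, with a median of -1.43, and without blastocyst library 1 the counts were 12 lower and 0 higher. PTTG1, securin, had 472 and 496 RPKM in the blastocysts, against 14399, 18212 and 28422 RPKM in the oocytes. AURKA, a spindle kinase, had 35.1 and 13.4 RPKM in the blastocysts, against 656, 1073 and 1892 RPKM in the oocytes, and cyclin B3 (CCNB3) had 1.81 and 2.28 RPKM in the blastocysts, against 91.5, 161 and 179 RPKM in the oocytes. The pair that drives entry into division, cyclin B1 and CDK1, was not called: CCNB1 had 537 and 239 RPKM in the blastocysts, against 249, 337 and 685 RPKM in the oocytes, and CDK1 had 410 and 191 RPKM in the blastocysts, against 28.7, 352 and 480 RPKM in the oocytes. The 3 higher genes, the mitotic kinases AURKB, PLK1 and PLK4, all lost their calls without blastocyst library 1, among others.

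Genes that mark the stages mostly stood on the side of their stage. Of 14 tested panel genes, 8 were lower in blastocysts, namely ZP2, ZP3, GDF9 (identifier IMMRNTR2410), BMP15, H1-8, FIGLA, NLRP5 and CDX2, and 5 were higher, KRT8, KRT18, GATA3, NANOG and GATA6. CDX2, a blastocyst marker, stood on the other side, and POU5F1 was not called. Markers of the cells that surround an oocyte were looked at as well. Of 16 listed cumulus and granulosa genes 4 were tested, and SERPINE2, TNFAIP6 and GREM1 (identifier IMMRNTR2394) were lower in blastocysts. The summed level of the list was 3.67 to 9.31 RPKM in the blastocysts, against 115 to 222 RPKM in the oocytes. SERPINE2 had 2.28 and 7.71 RPKM in the blastocysts, against 64.1, 102 and 174 RPKM in the oocytes, while AMH, AMHR2, FOXL2, PTX3 and LUM were listed at 0 in all 9 libraries. The part of attached cumulus cells in the lower calls was not tested.

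Among regulators of the outer layer some rose and some fell. Of 26 tested genes of trophectoderm transcription and the Hippo pathway, which reads cell position in the embryo, 10 were higher and 5 lower, with a median of 0.59. VGLL1, a cofactor of TEAD proteins, had 63.1 and 34.8 RPKM in the blastocysts and was listed at 0 in all oocytes. GATA3 and GATA2, transcription factors of the trophectoderm lineage, had 15.9 and 21.2 RPKM and 9.70 and 10.998 RPKM in the blastocysts, against at most 0.030 and 0.045 RPKM in the oocytes. The differences were 5.58 ± 0.23, 4.27 ± 0.27 and 3.49 ± 0.17 (SE; limma adjusted p 4.82e-12, 5.18e-10 and 4.52e-11).

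Of the TEAD family, the DNA-binding partners of YAP1, the members differed in direction. TEAD1 (identifier IMMRNTR2557) had 5.59 and 3.69 RPKM in the blastocysts, against 171, 319 and 610 RPKM in the oocytes. TEAD4, the family member required for trophectoderm in mice, had 1.33 and 0.842 RPKM in the blastocysts, against 0, 0.244 and 0.495 RPKM in the oocytes, a call lost without blastocyst library 1. CDX2, a trophectoderm factor in mice, did not rise: it had 0.836 and 2.16 RPKM in the blastocysts, against 0.542, 4.31 and 8.96 RPKM in the oocytes. The groups overlapped, and its call of lower (-0.86, limma adjusted p 0.0457) was lost under scaling, under the replicate block (adjusted p 0.0674) and without blastocyst library 1, among others. TFAP2C, another trophectoderm factor, had 27.2 and 29.3 RPKM in the blastocysts, against 10.3, 17.4 and 28.8 RPKM in the oocytes, and was not called.

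Epithelial and fluid-transport genes gave 15 higher and 7 lower of 37 tested, with a median of 0.43 that came to 0.03 without blastocyst library 2. Besides the keratins, ANXA2, a membrane-binding annexin, had 1263 and 760 RPKM in the blastocysts, against 11.2, 60.1 and 147 RPKM in the oocytes, and its partner S100A10 had 788 and 241 RPKM in the blastocysts, against 0.230, 1.52 and 7.19 RPKM in the oocytes. CLDN6, a tight-junction claudin, had 22.6 and 86.7 RPKM in the blastocysts, against at most 2.93 RPKM in the oocytes, whereas CLDN10 had 0.538 and 0.098 RPKM in the blastocysts, against 2.24, 28.9 and 43.6 RPKM in the oocytes. The beta subunit of the sodium pump, ATP1B1, was lower, with 1.46 and 15.1 RPKM in the blastocysts, against 143, 201 and 299 RPKM in the oocytes (-5.07 ± 0.58, SE; limma adjusted p 1.07e-06). AQP3, a water channel, was listed at 0 in both blastocysts.

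Of 24 tested genes of the epiblast and pluripotency, 15 were higher and 2 lower, with a median of 1.93. NANOG, a factor of the epiblast, had 130 and 48.5 RPKM in the blastocysts, against 0, 2.33 and 15.9 RPKM in the oocytes (4.58 ± 0.54, SE; limma adjusted p 1.37e-06). DNMT3L, the cofactor of de novo DNA methylation, had 231 and 84.1 RPKM in the blastocysts, against 0, 0 and 0.432 RPKM in the oocytes, and L1TD1, an RNA-binding protein of pluripotent cells, had 115 and 108 RPKM in the blastocysts, against at most 0.773 RPKM in the oocytes. POU5F1, a central factor of pluripotency, had 9.72 and 15.5 RPKM in the blastocysts, against 1.01, 3.42 and 14.8 RPKM in the oocytes. The groups overlapped and it was not called (1.40 ± 0.67, SE; limma adjusted p 0.0963), with 3 entries of that name in the table. SOX2 was at most 0.072 RPKM in any of the 9 libraries and was not tested. ETV5, a target of growth factor signals, was lower, with 0 and 0.326 RPKM in the blastocysts, against 2.96, 9.27 and 15.3 RPKM in the oocytes.

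For the primitive endoderm, 9 of 17 tested genes were higher and 5 lower, and the blastocysts themselves were unequal. GATA6 had 8.42 and 5.24 RPKM in the blastocysts, against at most 0.871 RPKM in the oocytes, and DAB2, an endocytic adaptor, had 37.8 and 73.1 RPKM in the blastocysts, against at most 0.027 RPKM in the oocytes. Several other members were high in blastocyst 2 alone. LAMB1, a laminin chain of basement membranes, had 1.48 and 41.1 RPKM in the blastocysts, LAMC1 had 2.52 and 24.9, the endocytic receptor LRP2 had 1.09 and 35.9, and the growth factor receptor PDGFRA had 0 and 14.999 RPKM, against oocyte maxima of 2.30, 3.10, 0.078 and 0 RPKM. Without blastocyst library 2 the calls of LAMB1, LAMC1 and PDGFRA were lost and the list came to 6 higher and 6 lower. HHEX, a homeobox factor of early endoderm, was lower, with 0.198 and 0.714 RPKM in the blastocysts, against 159, 188 and 388 RPKM in the oocytes. GATA4 was at most 0.437 RPKM in the 9 libraries and was not tested.

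Early placental products had 5 higher and 2 lower of 14 tested, and 8 higher without blastocyst library 1. XAGE3, a cancer and placenta antigen, had 239 and 116 RPKM in the blastocysts and was listed at 0 in all oocytes. CYP11A1, the enzyme that starts steroid synthesis from cholesterol, had 73.7 and 26.3 RPKM in the blastocysts, against at most 1.32 RPKM in the oocytes. SLC28A3, a nucleoside transporter, was lower, with 2.01 and 3.58 RPKM in the blastocysts, against 36.2, 76.5 and 116 RPKM in the oocytes.

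The 2 blastocysts differed beyond the endoderm genes as well. Of 3850 entries at 10 RPKM or more in at least 1 of them, 230 were 2 log2 units or more higher in blastocyst 1. Another 242 were as much higher in blastocyst 2. The median difference over the 3850 entries was 0.43 log2 units towards blastocyst 1. Oocytes were not compared with each other in this way. The cell-surface aminopeptidase ENPEP had 1.32 RPKM in blastocyst 1 and 46.0 RPKM in blastocyst 2, and the glucose transporter SLC2A1 had 0.932 and 36.2 RPKM. In the other direction the respiratory subunit NDUFS8 had 216 RPKM in blastocyst 1 and 11.03 RPKM in blastocyst 2. Among the extracellular matrix and secretion genes, where 4 of 18 were higher and 4 lower, no higher call was left without blastocyst library 2, and 1 lower call was left without blastocyst library 1.

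Energy metabolism and protein synthesis gave the lists with the largest shares of higher genes. Of 17 tested genes of glycolysis, the breakdown of glucose, 11 were higher and 2 lower, with a median of 2.12. GAPDH had 3146 and 1060.1 RPKM in the blastocysts, against 3.28, 17.8 and 87.2 RPKM in the oocytes, and ALDOA had 257 and 60.05 RPKM in the blastocysts, against 0, 0.600 and 3.14 RPKM in the oocytes. The entry enzyme HK2 had 32.3 and 40.0 RPKM in the blastocysts, against at most 0.219 RPKM in the oocytes. Together the listed genes held 1.60% and 1.27% of the summed RPKM of the blastocysts, against 0.0247% to 0.0711% in the oocytes. LDHC, the lactate dehydrogenase of germ cells, was lower, with 27.7 and 7.53 RPKM in the blastocysts, against 64.6, 137 and 198 RPKM in the oocytes, a call lost without blastocyst library 2.

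Of 63 tested genes of oxidative phosphorylation encoded in the nucleus, 41 were higher and 0 lower in limma at an adjusted p under 0.05. COX8A, a subunit of cytochrome oxidase, had 600.0 and 181 RPKM in the blastocysts, against 1.73, 14.4 and 30.6 RPKM in the oocytes (5.12 ± 0.61, SE; limma adjusted p 1.6e-06). The list depended on blastocyst library 1, without which 17 were higher and 0 lower. By oocyte stage, 21 genes were higher than in GV oocytes, 23 than in MI oocytes and 46 than in MII oocytes, a difference between stages that was not tested. The share of the summed RPKM was 5.22% and 4.33% in the blastocysts, against 3.09% and 2.87% in GV, 2.18% and 2.14% in MI, and 1.20%, 0.845% and 1.41% in MII oocytes.

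Cytosolic ribosomal proteins had the largest share of higher genes of all lists, 61 of 73 tested with 1 lower and a median of 2.48. Without blastocyst library 1 the higher calls came to 39. RPS3A, a protein of the small subunit, had 1082 and 805 RPKM in the blastocysts, against 7.21, 19.9 and 131 RPKM in the oocytes, and RPL10A had 862 and 484 RPKM in the blastocysts, against 31.8, 37.2 and 51.1 RPKM in the oocytes. The listed genes held 21.4% and 21.1% of the summed RPKM of the blastocysts, against 3.23% to 5.46% in the oocytes. The blastocyst shares were close to each other although their RPKM sums were not. The exception, RPS18 (identifier IMMRNTR2481), had 1.59 and 1.14 RPKM in the blastocysts, against 0.164, 23.0 and 67.2 RPKM in the oocytes, a name that could not be checked and a call lost with the 7 oocytes fitted as 1 group. Ribosomal protein genes have many near-identical copies in the genome, so single values are uncertain.

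Genes that build ribosomes moved less evenly: 27 of 60 tested were higher and 4 lower, and 15 were higher without blastocyst library 1. POLR1C, a shared subunit of RNA polymerases I and III, had 87.6 and 71.6 RPKM in the blastocysts, against 0, 0.069 and 2.83 RPKM in the oocytes. DDX10, a helicase of the nucleolus, was lower, with 16.1 and 23.6 RPKM in the blastocysts, against 236, 327 and 495 RPKM in the oocytes. Of 36 tested proteasome genes 14 were higher and 2 lower. PSMA1 had 546 and 247 RPKM in the blastocysts, against 1.29, 2.23 and 6.25 RPKM in the oocytes, while PSMA2, of the same ring, had 748 and 405 RPKM in the blastocysts, against 900, 1128 and 2181 RPKM in the oocytes, a call lost under scaling and without blastocyst library 2. The proteasome count was 5 higher without blastocyst library 1 and 23 higher and 0 lower under scaling. Of 16 genes of cholesterol synthesis 4 were higher and 1 lower, and FDPS, IDI1 and LSS lost their higher calls without blastocyst library 1, while 2 higher and 2 lower were called without blastocyst library 2.

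**Figure D2:**
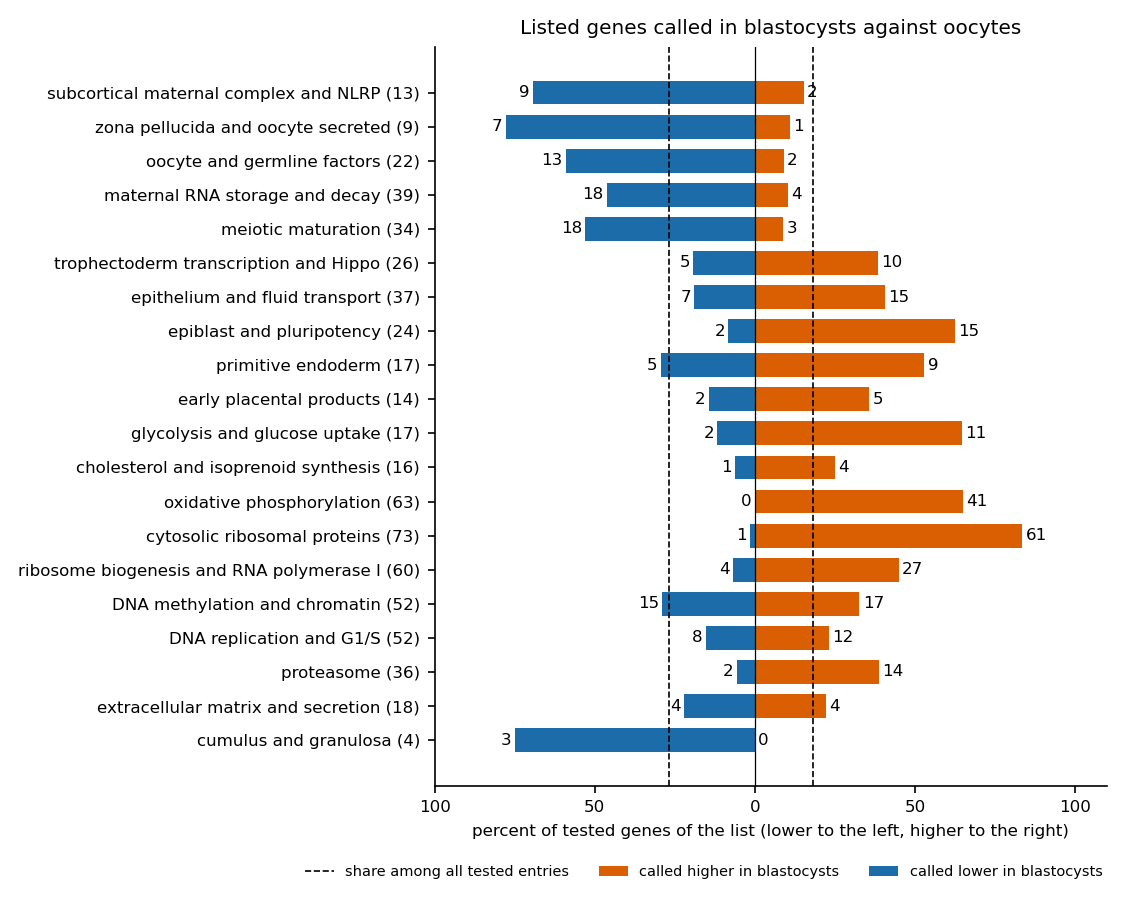
Percent of the tested genes of each list called higher (orange, right) or lower (blue, left) in blastocysts than in oocytes, with the number of genes beside each bar, the number tested in brackets and dashed lines at the shares over all entries (18.3% higher, 26.7% lower). Cytosolic ribosomal proteins reach 61 higher of 73, and zona and oocyte-secreted genes 7 lower of 9.

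Genes of DNA methylation and chromatin were called in both directions: 17 of 52 were higher and 15 lower, with a median of -0.05. DNMT1, which copies methylation to new strands, had 1.15 and 1.31 RPKM in the blastocysts, against 157, 410 and 1188 RPKM in the oocytes (-7.70 ± 0.37, SE; limma adjusted p 3.11e-11). Its partner UHRF1 had 22.8 and 29.1 RPKM in the blastocysts, against 561, 882 and 1933 RPKM in the oocytes. DNMT3B, which sets new methylation, had 121 and 105 RPKM in the blastocysts, against 9.75, 13.9 and 31.1 RPKM in the oocytes (2.78 ± 0.60, SE; limma adjusted p 0.000863). DNMT3A had 106 and 86.4 RPKM in the blastocysts, against 3.29, 27.2 and 52.8 RPKM in the oocytes, a call lost with the 7 oocytes fitted as 1 group, among others.

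Of the 3 TET oxidases, which act on methylated cytosine, TET1 and TET2 were higher and TET3 was lower. TET1 had 6.59 and 16.9 RPKM in the blastocysts, against at most 0.289 RPKM in the oocytes, and TET2 had 10.1 and 54.0 RPKM in the blastocysts, against 2.45, 3.12 and 5.74 RPKM in the oocytes. TET3 had 0.012 and 0.147 RPKM in the blastocysts, against 0.585, 0.757 and 3.402 RPKM in the oocytes, a call lost under scaling and without either blastocyst, among others. ZFP57, a zinc finger protein that protects imprinted regions, had 5.11 and 8.93 RPKM in the blastocysts and was listed at 0 in all oocytes, and its cofactor TRIM28 had 51.3 and 20.7 RPKM in the blastocysts, against at most 0.914 RPKM in the oocytes. Among histone enzymes, the H3K4 demethylase KDM1B, which acts in growing oocytes, was lower, with 1.46 and 3.81 RPKM in the blastocysts, against 82.0, 98.0 and 111 RPKM in the oocytes. Another H3K4 demethylase, KDM5B, was higher, with 11.3 and 18.6 RPKM in the blastocysts, against at most 1.37 RPKM in the oocytes. EED, a core subunit of the Polycomb complex PRC2, was higher as well, with 28.3 and 27.4 RPKM in the blastocysts, against at most 1.10 RPKM in the oocytes.

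Replication genes were mixed, with 12 of 52 higher and 8 lower, or 18 higher and 4 lower under scaling. PCNA, the sliding clamp, had 309 and 203 RPKM in the blastocysts, against 1909, 3563 and 5870 RPKM in the oocytes. CDK4, the kinase of the G1 phase, had 30.2 and 18.7 RPKM in the blastocysts, against at most 1.46 RPKM in the oocytes, and the transcription factors MYC and MYCN had 15.1 and 14.95 RPKM and 13.8 and 9.63 RPKM in the blastocysts, against at most 0.391 RPKM and 0 RPKM in the oocytes. The list came to 7 higher and 4 lower without blastocyst library 2, and to 18 higher and 13 lower without morula library 2.

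Related genes of which one serves the oocyte were set out in 27 pairs, with both members tested in 21. In 7 pairs the oocyte member was lower and its partner higher in blastocysts. Over all entries, 26.7% were called lower and 18.3% higher. Several calls within these pairs were lost in alternative runs, as given with each gene below. In 4 pairs both were lower, in 1 both were higher, and in the others 1 member or neither was called. The oocyte beta-tubulin TUBB8 (identifier IMMRNTR5601) had 0.181 and 0.358 RPKM in the blastocysts, against 813, 1754 and 2552 RPKM in the oocytes. The broadly used TUBB had 545 and 233 RPKM in the blastocysts, against 0.057, 0.455 and 1.08 RPKM in the oocytes. The differences of TUBB8 and TUBB were -10.32 ± 0.51 and 7.94 ± 0.42 (SE; limma adjusted p 4.52e-11 and 9.66e-11), the largest opposed change of the 7 pairs. Tubulin genes are near-identical in parts, and the name of the TUBB8 entry could not be checked.

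KPNA7, an importin of the oocyte that carries proteins into the nucleus, had 2.63 and 6.09 RPKM in the blastocysts, against 522, 1270 and 2099 RPKM in the oocytes, while KPNA2 had 977 and 383 RPKM in the blastocysts, against 48.7, 345 and 688 RPKM in the oocytes. The KPNA2 values overlap, and its call was lost without blastocyst library 1, among others. NPM2, the nucleoplasmin of the egg, had 0.117 and 0.299 RPKM in the blastocysts, against 47.3, 169 and 276 RPKM in the oocytes. NPM1, its counterpart in other cells, had 2650 and 1578 RPKM in the blastocysts, against 661, 977 and 1104 RPKM in the oocytes, and lost its call without blastocyst library 1. AURKC, the Aurora kinase of meiosis, had 10.01 and 6.30 RPKM in the blastocysts, against 135, 233 and 470 RPKM in the oocytes, and AURKB had 92.2 and 38.9 RPKM in the blastocysts, against 3.19, 18.7 and 28.3 RPKM in the oocytes, a call (adjusted p 0.0455 in limma) lost without either blastocyst, among others.

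YBX1, a widely used Y-box protein, had 173 and 122 RPKM in the blastocysts, against 8.78, 26.0 and 42.3 RPKM in the oocytes, and the germ-cell member YBX2 had 3.00 and 0.358 RPKM in the blastocysts, against 2.25, 12.3 and 43.4 RPKM in the oocytes. The YBX2 groups overlapped and its call was lost without blastocyst library 2 and with the 7 oocytes fitted as 1 group. BTG1, the relative of BTG4, had 13.2 and 28.1 RPKM in the blastocysts, against 0.551, 2.44 and 9.26 RPKM in the oocytes, and its call was also lost without blastocyst library 2. In the pair of lactate dehydrogenases both LDHB and LDHA were higher, with LDHA at 594 and 272 RPKM in the blastocysts, against 4.13, 14.3 and 20.4 RPKM in the oocytes. Among the 4 pairs with both members lower, TBPL2, the TATA-binding protein of the oocyte, had 0 and 0.054 RPKM in the blastocysts, against 12.8, 39.5 and 90.7 RPKM in the oocytes. In each of these pairs 1 member lost its call in some alternatives: TBP (adjusted p 0.367 in limma) and FBXO5 (0.138) under scaling and without either blastocyst, PATL1 without blastocyst library 1, and TAF4B under scaling and without blastocyst library 1. TBP lost it in 10 alternatives in all.

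**Figure D3:**
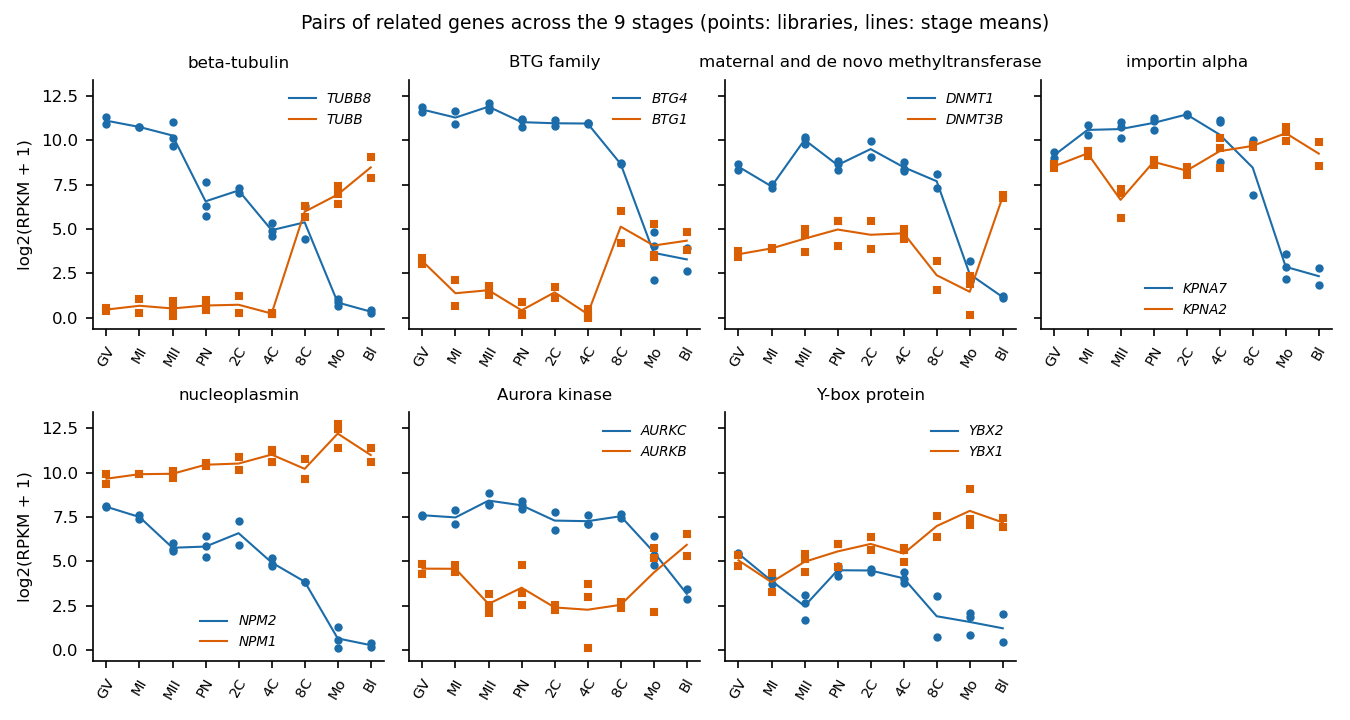
The 7 pairs with the oocyte member called lower (blue circles) and its partner called higher (orange squares) in blastocysts than in oocytes, in log2(RPKM + 1) at the 9 stages; points are libraries and lines join stage means. TUBB8 ends at 0.181 and 0.358 RPKM in blastocysts and TUBB at 545 and 233 RPKM, against 813 to 2552 and 0.057 to 1.08 RPKM in oocytes.

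The stages between showed when each entry took its blastocyst side, read as the first stage from which all later stage means lay beyond the midpoint of the ends. Of the 3823 lower entries, 1381 crossed at the 8C stage and 1378 in the morula. Earlier crossings numbered 284 by PN, 146 at 2C and 385 at 4C, and 249 entries crossed only at the blastocyst. Of the 2615 higher entries, 1505 crossed only at the blastocyst, 551 in the morula and 518 at the 8C stage, with 5 by PN, 1 at 2C and 35 at 4C. Without morula library 2 the higher entries numbered 600 at 8C, 668 at Mo and 1301 at the blastocyst. A crossing is a description of stage means and carries no test. Crossings were counted without median-of-ratios scaling, and how far the counts depend on that scaling was not tested.

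The lists crossed at different stages. All 10 higher trophectoderm genes and all 5 higher placental genes crossed at the blastocyst. Of the 61 higher ribosomal protein genes, 40 crossed at Mo, 11 at the blastocyst, 6 at 8C and 4 at 4C. Of the 27 higher genes of ribosome biogenesis, 15 crossed at 8C, and of the 41 higher genes of oxidative phosphorylation, 36 crossed at the blastocyst and 5 at Mo. Of the 9 lower genes of the NLRP list, 8 crossed at Mo and 1 at 8C. The pairs of related genes also differed here: TUBB8 crossed at 4C and TUBB at 8C, whereas DNMT1 crossed at Mo and DNMT3B at the blastocyst. DNMT3B had stage means of 26.5 RPKM at 4C, 5.13 RPKM at 8C and 2.31 RPKM at Mo, before its 121 and 105 RPKM in the blastocysts. The 4C mean was above the oocyte mean of 16.8 RPKM, and the 8C and Mo means were below it.

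**Figure D4:**
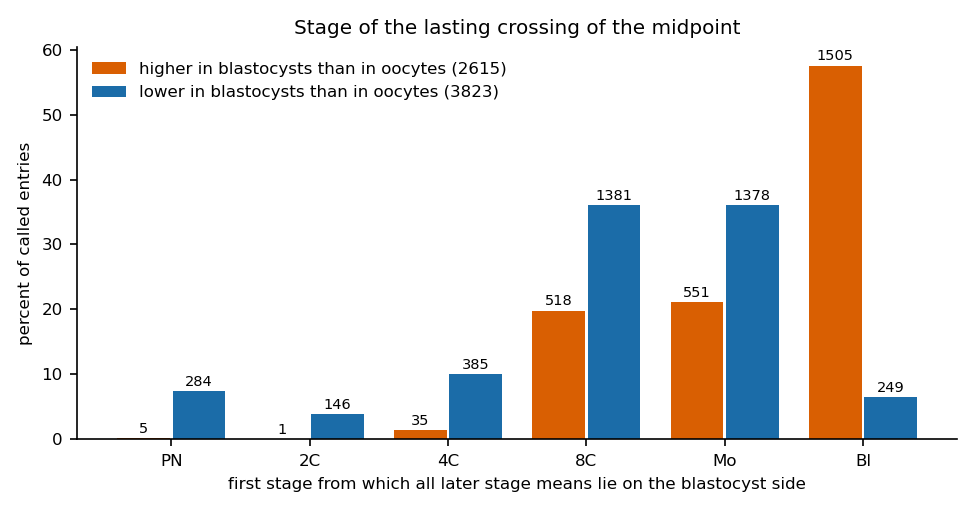
Percent of entries higher (orange, 2615) or lower (blue, 3823) in blastocysts than in oocytes by the stage of their lasting crossing of the midpoint between the ends, with the number of entries above each bar. Higher entries crossed mostly at the blastocyst (1505), lower entries at 8C (1381) and Mo (1378). Crossings were counted without median-of-ratios scaling.

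An entry was called similar when the 95% interval of its difference lay within 1 log2 unit either way and its mean was at least 5 RPKM at both ends. Of 3410 entries at 5 RPKM or more at both ends, 48 met this, which is 1.41% of them and 0.335% of all tested, with levels of 5.04 to 573 RPKM and a median of 25.1 RPKM. The rule takes entries with little spread and depends on the libraries present: 165 entries met it without morula library 2, and 2 and 1 without blastocyst libraries 1 and 2. Just inside the limit were RNF4 and MRPS9, with interval bounds of -0.9965 and -0.9992, and just outside were TTF2 and BMS1 (identifier IMMRNTR5727), with -1.003 and 1.006.

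A similar level at both ends did not mean a steady level between them. Of the 48, 27 dipped at 1 or more stages, 9 peaked, 2 did both and 14 did neither, where a dip or peak is a called difference from the midpoint of the ends that also lies at least 1 log2 unit beyond both. Over all entries tested, 18.6% dipped and 15.4% peaked by the same rule. These shares are not a like comparison. Lying beyond both ends is harder where the ends differ, and 45% of all entries were called different between them. A floor on the level at both ends leaves more room for a dip than for a peak, and little spread makes any difference easier to call. By stage, dips were called for 6 of the 48 at PN (3.16% over all entries), 5 at 2C (4.43%), 14 at 4C (6.55%), 14 at 8C (5.74%) and 13 at Mo (10.8%). Peaks were called for 0 at PN (3.75%), 0 at 2C (1.52%), 1 at 4C (2.58%), 3 at 8C (8.13%) and 5 at Mo (3.55%). The balance rested on the scaling: with median-of-ratios scaling, 17 dips and 15 peaks were found among 42 similar entries.

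The deepest dips were in the 8C stage and the morula. PSMA4, a subunit of the proteasome's outer ring, had 851 and 376 RPKM in the blastocysts and 403, 543 and 591 RPKM (lowest, median, highest) in the oocytes. At 8C it had 36.6 and 68.4 RPKM, below every library of either end, and differed from the midpoint of the ends by -3.42 (limma adjusted p 1.9e-06). Every other library between the ends was also below both ends. Stage means of PSMA4 were 195 RPKM at PN, 143 RPKM at 2C, 215 RPKM at 4C and 139 RPKM at Mo, so its fall was not confined to 8C. VRK1, a kinase that acts on chromatin in dividing cells, had 141 and 81.3 RPKM in the blastocysts and 57.2, 106 and 142 RPKM in the oocytes, with 11.02 and 14.7 RPKM at 8C. It was back at 69.2, 56.2 and 106 RPKM in the morulae, so its dip lasted 1 stage. CHEK2, a kinase of the DNA damage response, had 10.97 and 3.81 RPKM in the blastocysts and 4.03, 6.29 and 9.999 RPKM in the oocytes, with 1.25 and 0.068 RPKM at 8C.

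The other 5 named dips reached their lowest point in the morula. WWP1, a ubiquitin ligase, had 6.77 and 18.2 RPKM in the blastocysts and 9.10, 13.5 and 15.6 RPKM in the oocytes, with 2.39 and 2.31 RPKM at 8C and 0.105, 0.036 and 1.32 RPKM at Mo (-3.23; limma adjusted p 1.54e-06). RBMS1, an RNA-binding protein, had 6.79 and 8.52 RPKM in the blastocysts and 3.45, 6.49 and 15.7 RPKM in the oocytes, with at most 0.035 RPKM in any morula. HSD17B4, an enzyme of peroxisomal fat breakdown, differed in form: it had 14.0 and 12.6 RPKM in the blastocysts, 6.71, 18.1 and 24.0 RPKM in the oocytes and still 24.3 and 27.3 RPKM at 8C, but 2.65, 0.076 and 0.980 RPKM at Mo. CFAP36, a protein of cilia, and USO1, a tether of Golgi transport, dipped to stage means -2.48 and -2.31 from the midpoint at Mo. All 8 named dips kept a called difference from the midpoint in every alternative run that fitted the stages between, with morula library 2 left out among them. That check did not ask whether each gene still lay 1 log2 unit beyond both ends, or was still similar at the ends.

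Peaks were rarer than dips without median-of-ratios scaling. Of the 8 named in each direction, fewer peaks than dips kept their calls in every alternative run. RNF4, a ubiquitin ligase that recognises SUMO chains, had 10.9 and 17.9 RPKM in the blastocysts and 11.4, 13.7 and 20.4 RPKM in the oocytes, with 134 and 54.2 RPKM at 8C (2.52; limma adjusted p 0.00062). CNIH1, a cargo receptor of secretion, had 6.81 and 14.1 RPKM in the blastocysts and 4.28, 11.5 and 15.8 RPKM in the oocytes, with 35.5, 29.0 and 49.2 RPKM at Mo. POLR1E, a subunit of RNA polymerase I, had 4.68 and 7.67 RPKM in the blastocysts and 2.15, 4.14 and 14.9 RPKM in the oocytes. At Mo it had 16.1, 20.004 and 18.3 RPKM. Its oocyte stage means were uneven, at 13.9 RPKM in GV, 5.46 RPKM in MI and 3.45 RPKM in MII. The blastocyst level is thus similar to the mean of the 7 oocytes and not to each oocyte stage. NOC3L, a factor of large-subunit assembly, and TARDBP, an RNA-binding protein, were at Mo 1.26 and 1.42 above the midpoint.

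ATG5 and BPTF did both. ATG5, needed to form autophagosomes, had 51.7 and 21.7 RPKM in the blastocysts and 16.8, 35.9 and 57.3 RPKM in the oocytes, with 7.45 and 12.2 RPKM at 8C and then 66.7, 76.4 and 87.9 RPKM at Mo. BPTF, a subunit of the NURF chromatin remodeller, had 3.27 and 10.005 RPKM in the blastocysts and 2.91, 5.44 and 8.13 RPKM in the oocytes, with 1.01, 2.40 and 1.44 RPKM at 4C and 15.5 and 16.5 RPKM at 8C. Of the 8 named peaks, 5 kept a called difference from the midpoint in every alternative run that fitted the stages between, by the same check as for the dips. ATG5 lost its peak without morula library 3 or blastocyst library 2, BPTF lost its peak with a pseudocount of 0.1, without either 8C library or without blastocyst library 1, and C1H1orf52 lost its peak without 8C library 1.

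The named entries with the flattest course had neither a dip nor a peak. NARS1, which charges tRNA with asparagine, had 98.7 and 88.6 RPKM in the blastocysts, 55.2, 85.5 and 112 RPKM in the oocytes and 44.5 to 147 RPKM in the libraries between. SRP72, of the signal recognition particle, had 50.6 and 40.4 RPKM in the blastocysts and 39.4, 51.6 and 71.7 RPKM in the oocytes. VPS4B, CLDND1, RBM25 and KPNA6 were the others with the smallest range of stage means. Their oocyte levels were not all steady. From GV to MII the stage means went from 7.07 to 19.9 RPKM for VPS4B and from 21.4 to 37.1 RPKM for RBM25. For CLDND1 they went from 21.4 to 22.9 RPKM, and for KPNA6 from 6.46 to 4.57 RPKM. KPNA6 is an importin like KPNA7 and KPNA2, with 3.97 and 6.16 RPKM in the blastocysts and 3.64, 5.42 and 7.15 RPKM in the oocytes. Its highest library was morula library 2, with 20.7 RPKM.

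**Figure D5:**
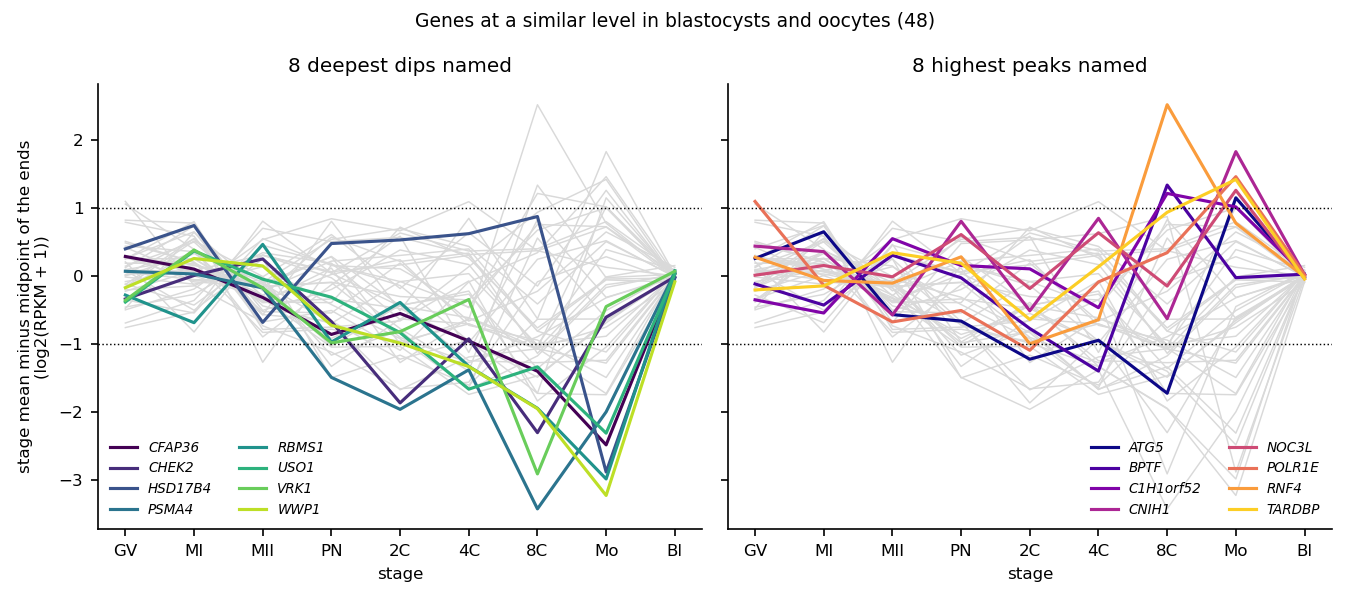
Stage means of the 48 genes with a similar level at both ends, as the difference from the midpoint of the blastocyst and oocyte means in log2(RPKM + 1); grey lines are all 48, coloured lines the 8 deepest dips (left) and the 8 highest peaks (right), and dotted lines mark 1 log2 unit. PSMA4 reaches -3.42 at 8C, WWP1 -3.23 at Mo and RNF4 2.52 at 8C.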

How the data were processed

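Per the labels' protocols, a SMARTer kit amplified the RNA of 1 oocyte or embryo into each library. The authors deposited 1 table of RPKM values (35468 entries, 22 libraries). Per the submitters' processing notes the build was Mmul 8.0.1. The file names no build, so positions are printed as deposited. Aligner, counting program and annotation are not given in the sources used here. Symbols came from a name table (15373 entries), otherwise from the file (6832). The 183 entries that the file and the table give to different genes have none. Names of IMMRNTR entries could not be checked.

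Depth was estimated from 520 low values of features under 200 bp, of which 473 (91.0%) lay within 0.05 of a whole read, as 5575000 to 21830000 reads.

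Entries at 1 RPKM or more in at least 2 libraries (14312) were tested on log2(RPKM + 1) with limma 3.58.1 (R 4.3.3; trend, robust), 1 mean per stage, 13 residual degrees of freedom, Benjamini-Hochberg adjustment and a 2-sided threshold of 0.05. Blastocysts were set against the mean of the 7 oocytes. Named genes are the 10 largest called differences in each direction (Ensembl identifier, no overlap, 10 RPKM or more), up to 3 called members per list and direction, the pairs, a label panel, and the 8 deepest dips, 8 highest peaks and 6 flattest of the similar entries. Other genes are examples chosen after their values were seen. Genes, lists and rules were chosen with earlier results of these data known. A symbol with several entries is shown by the one with the highest mean. Code was tested on simulated data. Sequences are not used here. Python 3.11.15, numpy 2.4.6, pandas 2.3.3 and matplotlib 3.10.9 were also used.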

Additional observations from a re-analysis of the deposited data

Results flagged for a closer look

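In 6 of the genes near or at 0 RPKM in oocytes, 1 oocyte lay far from the other 6. The single value was 0.295 RPKM for S100P, 0.198 RPKM for PLAC8, 0.129 RPKM for IFITM1 and 0.030 RPKM for GATA3, all in MI library 1. It was 0.353 RPKM for KRT8 and 0.097 RPKM for DPPA2, both in MI library 2. Chance sets apart about 1 in 20 groups by this rule, and a single value above 0 among values of 0 always meets it. All 6 values are under 1 RPKM, and the blastocysts lay above each of them.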

How the results depend on the processing

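Higher entries outnumbered lower ones, against the reported order, under median-of-ratios scaling (3202 and 2739; 2340 and 2058 against MI; 3200 and 2477 against MII) and with no filter on low values (3786 and 3702; 3700 and 2926 against MII), and against MII also without blastocyst library 1 (2172 and 2068). Against GV the order held in every alternative run, with 2342 lower under scaling. The similar, dip and peak counts were the least stable: 22, 9 and 5 with a pseudocount of 0.1, 17 dips and 15 peaks under scaling, 482, 281 and 61 with the interval within 1.5, 451, 174 and 146 with that and scaling, 817, 467 and 120 with that and morula library 2 left out, 760, 423 and 70 with the difference within 0.5, and 25, 11 and 5 at 20 RPKM or more. Dips and peaks of 2 log2 units numbered 8 and 1. Fits of the 9 end libraries gave 366 similar entries with 1 mean per stage and 113 with the oocytes as 1 group. Leaving out 1 library gave 1891 to 3003 higher and 2369 to 4155 lower, 1137 to 2102 and 2405 to 3962 against GV, 1189 to 2191 and 2150 to 3671 against MI, 2172 to 3272 and 2068 to 3400 against MII, 1 to 165 similar, 0 to 97 dips and 0 to 26 peaks. Without GV library 1 or 2 the higher count against GV was 1137 or 1143, and without MI library 1 that against MI was 1189. Without blastocyst library 1 the lower counts were 2369, and 2150 against MI, and without MII library 2 there were 5 peaks. The replicate block gave 2596 higher and 3721 lower, 36 similar, 19 dips and 8 peaks; same-numbered libraries deviated together at r of -0.0691 to 0.0703, so the numbers are not shown to pair samples. Of 140 called named genes 103 kept their call in every alternative run, 21 lost it without blastocyst library 1, 19 without blastocyst library 2 and 10 under scaling, and 0 reversed. Lone blastocysts in these fits are assumed to vary like the other stages, and values near 1 read are limited by depth.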
